A study of Mus musculus with 32 samples.

Results

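Among mice inoculated with human gut microbiota, the frontal cortex carried either a high or a very low level of Syn1 mRNA, and the 12 mice of that kind were divided here by this level alone. The rule took the Syn1 count of each mouse as a share of its library total, scaled to the usual CPM. The mice were chosen by their measured Syn1 level: those above 100 CPM were called high Syn1 mice (6 mice) and mice below 20 CPM low Syn1 mice (6 mice), so that all 12 human microbiota mice, of 32 mice in the series, were used and none lay between the thresholds. The other 20 mice received microbiota of squirrel monkeys (8 mice) or macaques (12 mice). Both Syn1 groups share the tissue, the frontal cortex with its prelimbic and infralimbic areas, and the treatment, an inoculation with human microbiota. No strain, sex, age, genotype or donor is given in the labels for any mouse, and no labelled trait separates high from low Syn1 mice. The sample titles carry a number for each mouse, whose meaning is not given. The numbers of the low mice fell in runs of neighbouring values, with some high mice next to them, and this was not tested. The labels give a batch as a unit above the mouse, and it was balanced: batch A held 2 high and 2 low mice, and batch B held 4 high and 4 low mice. The library names also carry a plate position. All batch A mice were in plate column 1 and all batch B mice in plate column 2, so batch and plate column cannot be told apart.

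Syn1 encodes synapsin I, a phosphoprotein on the cytoplasmic face of synaptic vesicles. Synapsins tether vesicles to one another and to actin in the reserve pool of the presynaptic terminal, and phosphorylation by calcium-dependent and cyclic AMP-dependent kinases releases the vesicles for exocytosis. Syn1 lies on the X chromosome, is transcribed in nearly all mature neurons, and is held down outside neurons by the repressor REST, which binds an element in its promoter. Its relatives Syn2 and Syn3 are autosomal.

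The promoter of Syn1 is shown because Syn1 alone defines the groups and because its REST element is the textbook regulatory site of the gene. The sequence covers the 250 bases before the annotated start of the gene, from RefSeq on build GRCm38.p6, at chrX:20920919-20921168 on the minus strand, written 5′ to 3′. Capitals mark, in order, the REST element RE1 (searched as TTCAGCACC, then 2 bases of any kind, then GGNCAG, where N is any base) and the cyclic AMP response element CRE (searched as TGACGTCA).
Syn1: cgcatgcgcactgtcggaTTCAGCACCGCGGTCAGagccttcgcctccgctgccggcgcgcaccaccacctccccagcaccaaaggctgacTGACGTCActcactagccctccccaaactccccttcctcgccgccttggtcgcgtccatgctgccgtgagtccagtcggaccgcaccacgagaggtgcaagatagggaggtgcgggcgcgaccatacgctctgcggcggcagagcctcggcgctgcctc
Searched on both strands, the RE1 letters occurred in 6 of 32851 mouse promoters of the same length (0.0183%) and the CRE letters, which read the same on both strands, in 508 (1.55%). The RE1 match began 232 bases and the CRE match 159 bases before the start. These matches describe the reference sequence. The counts hold no promoter or genotype information on the mice.

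Syn1 was 295 to 408 CPM in the high mice (median 338) and 1.91 to 11.1 CPM in the low mice (median 7.27). The means were 348 ± 47.3 CPM (SD, n = 6) and 6.33 ± 3.55 CPM (SD, n = 6), a ratio of 55.0. The members nearest to the thresholds were a high mouse of batch A at 295 CPM and a low mouse of batch B at 11.1 CPM, 26.6 times apart. These values chose the groups and are given without a test. Within the low level the batches stood apart: the 2 low mice of batch A had 2.39 and 1.91 CPM, while the 4 low mice of batch B had 6.64, 11.1, 8.01 and 7.91 CPM, 3.90 times as much on average. The high over low ratio was therefore 148 in batch A and 43.1 in batch B. The high mice did not divide in this way, with 344 and 295 CPM in batch A and 309 to 408 CPM in batch B.

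The same levels occurred in mice given other microbiota. Among the squirrel monkey mice, 7 lay at 269 to 344 CPM (median 311) and 1 at 8.20 CPM. All 12 macaque mice lay at 1.38 to 5.66 CPM (median 2.67). No mouse of the series lay between 11.1 and 269 CPM.

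**Figure D1:**
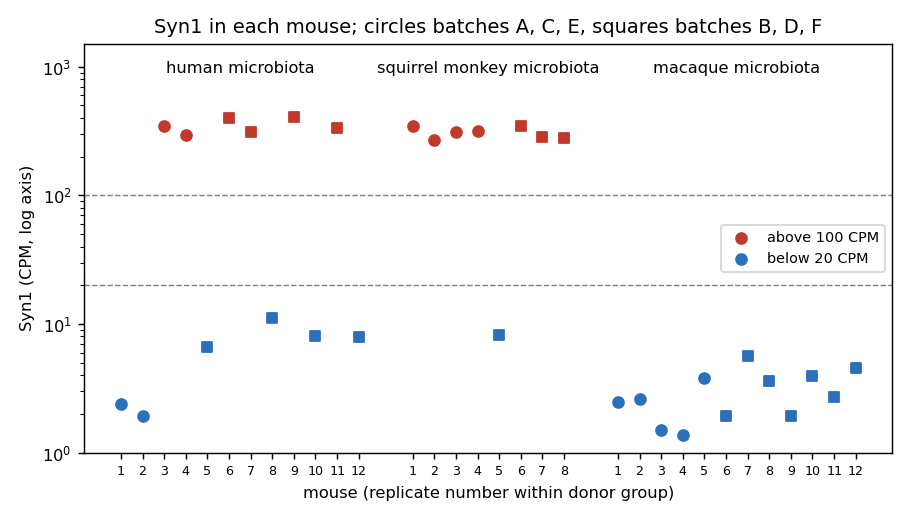
Syn1 level of each mouse (CPM, log axis) by microbiota donor and replicate number, 1 point a mouse, with circles for batches A, C and E, squares for batches B, D and F, and dashed lines at the thresholds of 100 and 20 CPM. The 12 human microbiota mice form a level of 295 to 408 CPM (red) and a level of 1.91 to 11.1 CPM (blue), both present in batch A and in batch B.

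For each of 12760 genes with a mean of at least 5 CPM, the widest gap between neighbouring mice on the log2 CPM scale was taken, with at least 2 of the 12 mice on each side. Syn1 had a gap of 4.61, which follows from the values that chose the groups and is given as a description. Among the other genes Serpina3n had the widest gap with 1.88, followed by Gm2398 with 1.81 and by the myelin genes Cldn11 with 1.61 and Mobp with 1.6. Serpina3n parted 3 high Syn1 mice (replicates 3, 4 and 6) from the other 9, and Cldn11 and Mobp parted replicates 1, 4 and 12 from the other 9, so none of these 3 genes had its widest gap between the 6 high and the 6 low mice.

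Library totals were 1300876 to 2046034 counts in high mice and 1204598 to 2089308 in low mice, and 17321 to 18304 and 17151 to 18393 genes had at least 1 count. Pearson's r of log2 CPM between a high and a low mouse was 0.925 to 0.978 (median 0.961, 36 pairs), beside 0.952 to 0.974 (median 0.962) within high mice and 0.930 to 0.973 (median 0.961) within low mice. The Y-linked genes Ddx3y, Kdm5d, Eif2s3y and Uty had counts in 12 of 12 mice. Neuronal markers were present at similar levels in both groups: Snap25 at 1345 to 1733 CPM in high and 1394 to 1639 CPM in low mice, the vesicle protein gene Syp at 1060 to 1323 and 1001 to 1287 CPM, and Rbfox3, which encodes the neuronal nuclear antigen NeuN, at 203 to 337 and 204 to 281 CPM. The cortical excitatory marker Slc17a7 was at 414 to 573 and 383 to 506 CPM. Of the striatal markers, the dopamine receptor gene Drd1 was at 19.1 to 43.0 CPM in high and 11.7 to 31.5 CPM in low mice, Drd2 was at most 5.87 CPM, and the adenosine receptor gene Adora2a was at 0 in at least 1 mouse of each group and at most 4.89 CPM. All 3 were highest in high replicate 7. In bulk tissue, fewer cells of a type and less RNA per cell cannot be told apart.

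No other gene was called between high and low Syn1 mice. Of 12265 genes tested, 0 had an adjusted p under 0.05 (0%; edgeR quasi-likelihood test with batch as a term, Benjamini-Hochberg adjustment), and the smallest adjusted p was 0.149. At an unadjusted p under 0.05 there were 919 genes (7.49%), 475 higher (3.87%) and 444 lower (3.62%) in the high mice. DESeq2 called 2 genes, Serpina3n and Col6a1, both lower in high mice, with 632 genes at an unadjusted p under 0.05. Without any filter on low counts edgeR called 134 of 22055 genes (62 higher, 72 lower). That setting took the adjusted p of Serpina3n from 0.149 to 1.5e-30 while its log2 fold change stayed at -2.04. The reason was not tested, so the 134 genes are not read as a result. The median log2 fold change, always high over low, was -0.008, the median absolute value 0.12 and the median standard error (SE) 0.15. For 11586 genes (94.5%) the 95% interval lay within a 2-fold change in either direction, and for 8479 genes (69.1%) within 1.5-fold. Only 16 genes had a fitted change over 2-fold. Lower in high mice were Serpina3n, the astrocyte gene Gfap, the calcium-binding protein gene Cabp7, and the oligodendrocyte genes Mobp, Opalin, Bcas1, Cldn11, Mag and Mog with Lpar1. Higher were Apold1, Ndst4, Frzb, Tbc1d10a, Tunar and Olfr1196, of which Tbc1d10a and Olfr1196 passed the filter on low counts only through the high mice.

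**Figure D2:**
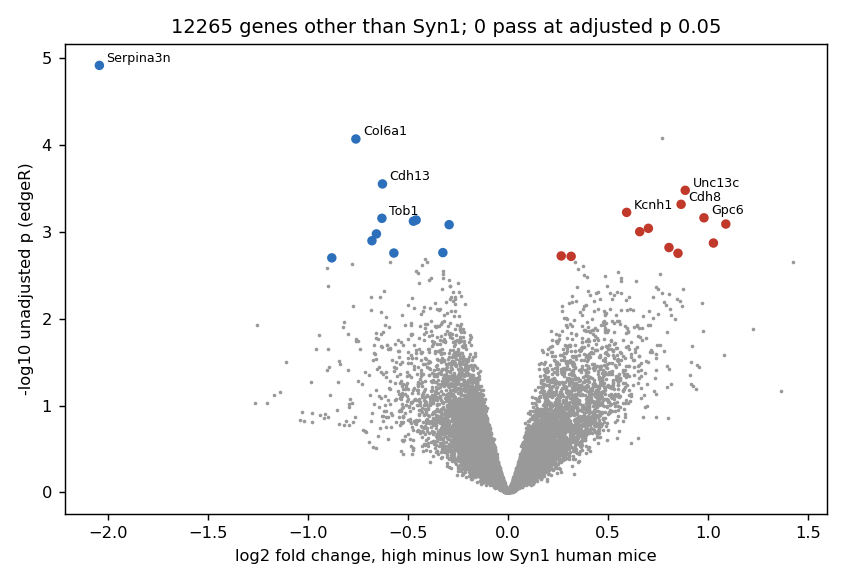
Each point is 1 of 12265 genes, with the log2 fold change of high over low Syn1 mice on the horizontal axis and the unadjusted edgeR p on a -log10 scale on the vertical axis; the 12 leading genes of each direction are coloured (blue lower, red higher) and some are named. Serpina3n (log2 fold change -2.04) stands highest, and no gene passed the adjusted threshold of 0.05.

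The genes beside Syn1 on the X chromosome did not share its division. Araf, a RAF family kinase gene whose annotation overlaps Syn1 on the opposite strand, was 214 to 233 CPM in high mice (median 225) and 210 to 240 CPM in low mice (median 223). Its log2 fold change was -0.02 ± 0.07 SE, with a 95% interval from -0.17 to 0.12, and the groups overlapped almost completely. The deubiquitinase gene Usp11 (0.01), the kinase gene Cdk16 (0.09) and the ubiquitin-activating enzyme gene Uba1 (-0.08) on that side had log2 fold changes near 0 as well. On the other side, the values were -0.03 for the complement regulator Cfp, -0.07 for the transcription factor Elk1 and 0.13 for the prefoldin-like gene Uxt. Uba1 is uncertain because the ends of 15 other annotated genes hold a near-identical copy of its own. Elk1 and Uxt overlap each other on the same strand in the annotation and are uncertain as well.

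Timp1, which encodes a tissue inhibitor of metalloproteinases, lies inside the annotated Syn1 gene on the opposite strand. It had 6 counts in the 6 high mice, with 2 mice at 0, and 19 counts in the 6 low mice, with 1 mouse at 0, and was too low for the fit. The difference of mean CPM had an exact permutation p of 0.119 within batches (two-sided, adjusted p = 0.995 over the 10 genes tested so; the smallest p the 420 arrangements allow is 0.00476). Across the squirrel monkey mice it had 2 counts in the 7 high mice and 2 in the low mouse, and across the 12 macaque mice 54 counts with no mouse at 0. The use of strand in counting is not given in the sources used here, so single reads from the overlaps of Syn1 with Timp1 and Araf could have been counted for either gene. The mean of Araf differed by -0.13 CPM between the groups, whose Syn1 means were 348 and 6.33 CPM, and Timp1 was at most 2.31 CPM in the high mice. The part of reads counted for the wrong gene was not tested. Among the 20 named X-linked genes on each side of Syn1, 20 were tested and 0 had an unadjusted p under 0.05, with log2 fold changes of -0.32 to 0.35. Over the whole X chromosome, 30 of 404 genes were at an unadjusted p under 0.05 (7.43%), beside 888 of 11848 autosomal genes (7.49%).

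The other synapsins stood at like levels in both groups. Syn2 was 695 to 1047 CPM in high mice (median 933) and 843 to 1045 CPM in low mice (median 870), and the log2 fold change of -0.02 ± 0.10 SE had a 95% interval from -0.22 to 0.19 (adjusted p = 0.971). The high range enclosed the low one. Syn3 was 4.37 to 13.8 CPM (median 6.36) in high and 3.26 to 12.0 CPM (median 5.04) in low mice and did not pass the filter on low counts. Its exact permutation p was 0.471 (two-sided, within batches; adjusted p = 0.995).

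**Figure D3:**
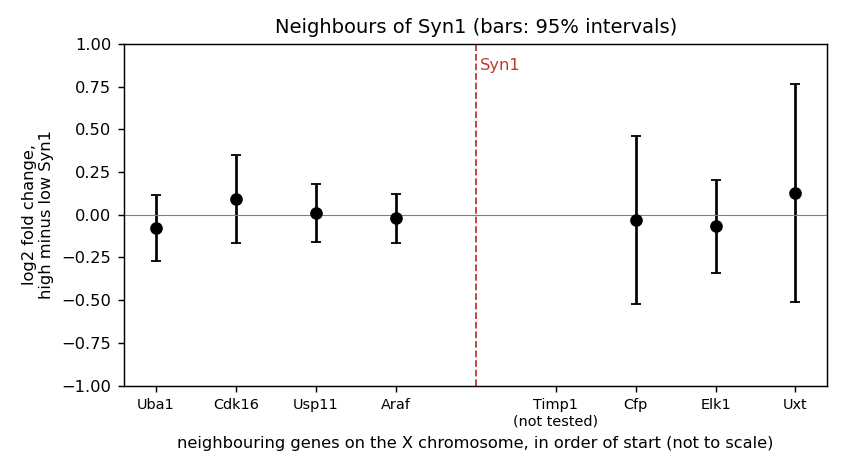
Log2 fold change of high over low Syn1 mice (vertical axis; bars are 95% intervals) for the 4 annotated genes on each side of Syn1, in order of start and not to scale, with the place of Syn1 as a dashed line and Timp1 without a point because it was not tested. Every interval includes 0, from the narrow one of Araf (-0.17 to 0.12) to the wide one of Uxt (-0.51 to 0.76).

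Of all other genes, Serpina3n had the smallest p. It encodes a secreted serine protease inhibitor that reactive astrocytes express strongly. It was 11.5 to 71.5 CPM in high Syn1 mice (median 37.2) and 110 to 188 CPM in low Syn1 mice (median 151). All 6 high mice lay below all 6 low mice. The means were 39.9 ± 29.8 and 153 ± 27.5 CPM (SD, n = 6 each). The log2 fold change was -2.04 ± 0.33 SE (p = 1.22e-05, adjusted p = 0.149, edgeR quasi-likelihood test). In batch A the high mice had 11.5 and 15.3 CPM and the low mice 177 and 110 CPM. In batch B the high mice had 12.2, 59.1, 69.9 and 71.5 CPM and the low mice 153, 141, 148 and 188 CPM. The groups thus stood apart in each batch, and the fold change was larger in batch A (-3.40, adjusted p = 0.0171 in batch A alone) than in batch B (-1.61, adjusted p = 0.597). The difference between batches had an unadjusted p of 0.0185 and an adjusted p of 0.999, and 0 of 12265 genes were called for it (417 genes, 3.4%, at an unadjusted p under 0.05; 0 by DESeq2).

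The mice of other microbiota give Serpina3n levels outside this comparison. In the 7 high squirrel monkey mice Serpina3n ran from 9.0 to 148 CPM (median 69.7), and the low mouse had 56.0 CPM, inside that range (log2 fold change -0.46, adjusted p = 0.915, edgeR). The macaque mice, all low in Syn1, had 11 to 104 CPM (median 29), below the 110 CPM of the lowest low human mouse. Gfap, the intermediate filament gene of astrocytes, is given beside it: 29.5 to 121 CPM in high human mice (median 59.6) and 39.5 to 301 CPM in low human mice (median 109), overlapping widely. Its log2 fold change was -1.11 ± 0.47 SE (adjusted p = 0.646). The part of astrocyte state in the Serpina3n difference was not tested.

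Col6a1, a chain of collagen VI in the extracellular matrix, was 56.8 to 75.3 CPM in high mice (median 69.2) and 75.3 to 148 CPM in low mice (median 108). The highest high mouse and the lowest low mouse met at nearly the same value. The log2 fold change was -0.76 ± 0.15 SE (p = 8.57e-05, adjusted p = 0.350). Without the low mouse of that lowest value, replicate 10, it was -0.86 with an adjusted p of 0.0304 (edgeR). Leaving out that mouse widens the difference by construction, so this value lends no support. Leaving out any other single mouse gave an adjusted p of 0.212 to 0.889. In the squirrel monkey mice the high range was 76.6 to 147 CPM and the low mouse had 131 CPM, again within the range.

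**Figure D4:**
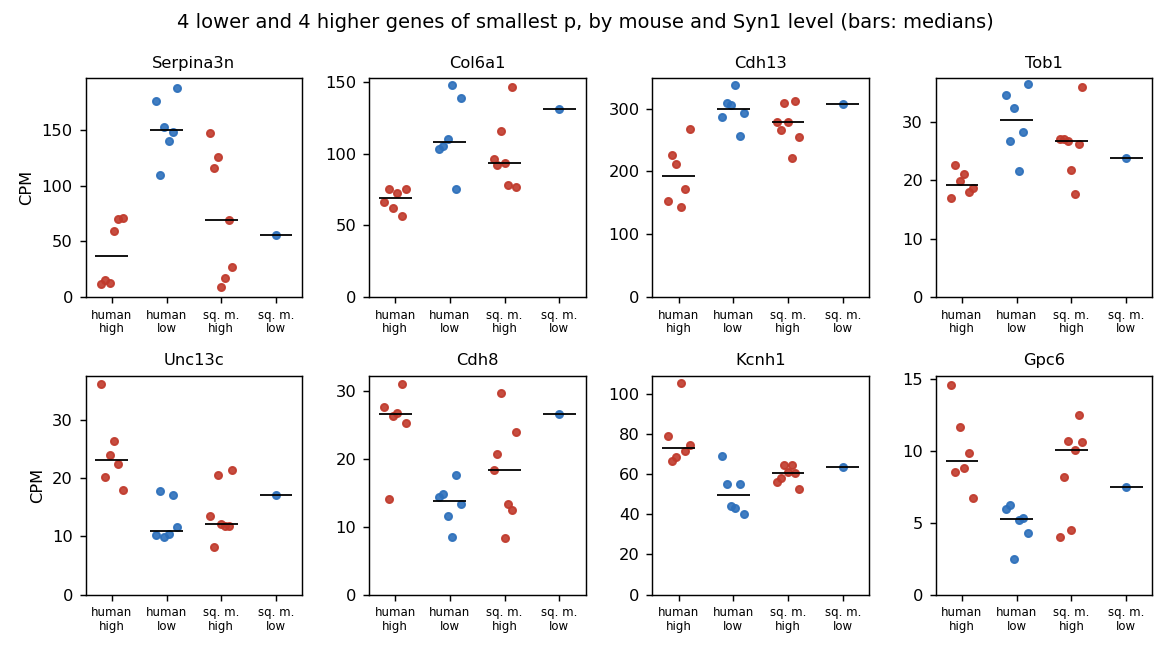
CPM of each mouse (linear axes from 0) for the 4 lower (upper row) and 4 higher (lower row) genes of smallest p, 1 point a mouse, in human and squirrel monkey (sq. m.) microbiota mice by Syn1 level (red high, blue low), with medians as bars. Serpina3n parts the human groups at 11.5 to 71.5 against 110 to 188 CPM, while the 1 low squirrel monkey mouse (56.0 CPM) lies within its high range of 9.0 to 148 CPM.

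The remaining leading genes of smallest p had adjusted p = 0.646 each (edgeR) and are given as values that did not pass. On the lower side, Cdh13, the membrane-anchored T-cadherin, was 144 to 268 CPM in high and 256 to 338 CPM in low mice (log2 fold change -0.63 ± 0.14 SE). Hrk, a pro-apoptotic BH3-only gene, was 129 to 216 and 201 to 268 CPM (-0.47). Nrip3 was 195 to 311 and 276 to 388 CPM (-0.46). Those pairs of ranges overlapped at their edges. The tetraspanin gene Tspan13 had -0.29, the antiproliferative gene Tob1 -0.63 and the zinc finger gene Zfp454 -0.88. Zfp454 passed the filter on low counts only through the low mice, so its place among the lower genes carries no weight of its own. Itgb1bp1, whose product binds the tail of integrin beta 1, had -0.68, and Pdia6, a protein disulfide isomerase of the endoplasmic reticulum, -0.33. Both overlap neighbouring genes in the annotation and are uncertain.

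On the higher side, Unc13c, which encodes the vesicle priming factor Munc13-3, was 17.9 to 36.1 CPM in high mice (median 23.2) and 9.96 to 17.7 CPM in low mice (median 11). Its groups did not overlap, although the gap was narrow, and the log2 fold change was 0.89 ± 0.20 SE (p = 0.000334). Gpc6, a heparan sulfate proteoglycan of the glypican family, was 6.71 to 14.6 and 2.49 to 6.22 CPM (0.98 ± 0.23 SE). Gpc6, and Tbc1d10a and Olfr1196 given below, passed the filter on low counts only through the high mice. Their place among the higher genes therefore carries no weight of its own. Channel and signalling genes followed at smaller size: Kcnh1 of the EAG potassium channels (0.59), Kcnc1 of the Kv3 potassium channels (0.32), and the G protein gamma subunit Gng4 (0.66). The cell adhesion gene Cdh8 had 0.87, the Rab GTPase-activating protein gene Tbc1d10a 1.09, the BCL2 family gene Bok 0.85 and the membrane anchor gene Efr3b 0.27. The list also held chemoreceptor genes at low counts: Vmn1r201 (0.70), Vmn1r207-ps (0.81) and Olfr1196 (1.03). Vmn1r207-ps has a near-identical copy in Vmn1r209, and Kcnh1 overlaps Hhat on the opposite strand, so their values are uncertain.

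Ranges of the 6 high and 6 low mice did not overlap for 32 of the 12263 genes that passed the filter on low counts and had a mean of at least 5 CPM (0.261%), 15 with the high mice above (0.122%) and 17 with the high mice below (0.139%). The share that chance alone gives was not worked out, so these genes are a description and not a result. Measured as the gap over the whole log2 range, the widest gaps were those of Pdlim1 with a share of 0.189, Xrcc6 with 0.17 and Serpina3n with 0.157. Pdlim1, a PDZ and LIM domain protein of the actin cytoskeleton, was 10.2 to 14.7 CPM in high mice and 17.4 to 24.9 CPM in low mice. Xrcc6, the Ku70 subunit of DNA end joining, was 13.5 to 16.9 and 19.2 to 28 CPM. Further ones were Nit1 (0.0692), Cpeb2 (0.069), Nudcd2 (0.0684) and Twf2 (0.0644). Xrcc6 overlaps Desi1 and Nit1 overlaps Dedd in the annotation, and both are uncertain for that reason. Of these genes, Nit1 and Twf2 were above in the high mice and the others below.

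The squirrel monkey mice allowed the same contrast with 7 high mice and 1 low mouse, which was assumed to vary like the others. Of 13343 genes, 0 were called (0%), with a smallest adjusted p of 0.0728, and 1251 (9.38%) had an unadjusted p under 0.05. DESeq2 called 27 genes and edgeR without the batch term 45. Of the 24 leading genes of the human mice, 8 had the same sign there, 3 of the higher and 5 of the lower. Over all 12237 genes tested in both, 4500 (36.8%) had the same sign. The low mouse lay within the range of the high mice for 19 of the 24. Gng4 was the one leading gene with the same sign at an unadjusted p under 0.05 (log2 fold change 0.73, p = 0.0477, adjusted p = 0.529), but the low mouse, at 21.9 CPM, lay within the 20.8 to 39.4 CPM of the high mice. Hrk (0.46) and Vmn1r207-ps (-1.25) had the opposite sign at that level.

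Gene lists around synapsin I held 0 called genes. Of 20 tested genes among its relatives, kinases, phosphatases and binding partners, the median log2 fold change was -0.02, beside -0.008 over all genes, and 8 were positive. The scaffold kinase gene Cask, whose product binds presynaptic adhesion proteins, had 0.23, the Cdk5 activator gene Cdk5r1 0.15 and the actin gene Actb -0.23. Of 29 synaptic vesicle genes the median was 0.004, with 0.32 for Rph3a, a Rab3 effector. Of 37 release genes the median was 0.01, with 2 higher and 2 lower at an unadjusted p under 0.05, beside 3.87% and 3.62% of all genes. Besides Unc13c, the active zone gene Ppfia2 had -0.21, which is uncertain because the overlapping gene Acss3 holds a near-identical copy of its end. Of 31 neuronal genes known for REST elements the median was 0.004 and 0 had an unadjusted p under 0.05. Chga, a granin of dense-core vesicles, had -0.29.

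Postsynaptic genes showed small positive values: 26 of 31 were above 0, and 0 were called. The median was 0.10, beside -0.008 over all genes. It was 0.01 in batch A, 0.16 in batch B and 0.06 without replicates 1, 4 and 12. The mean log2 level of the list, centred over the 12 mice, overlapped between the groups. It was -0.06 to 0.15 in high mice and -0.31 to 0.13 in low mice, lowest in replicate 12. Cacng2, the AMPA receptor auxiliary subunit stargazin, was 93.8 to 138 CPM in high and 50.5 to 125 CPM in low mice (0.47 ± 0.18 SE, adjusted p = 0.646). The scaffold gene Shank1 had 0.31 and the presynaptic adhesion gene Nrxn3, also in that list, 0.19. Shank1 is uncertain because an overlapping gene model holds a near-identical copy of its end. In the squirrel monkey mice the median of the list was -0.11. Interneuron genes had a median of 0.05 (24 tested), upper layer genes 0.17 (18 tested) and deep layer genes -0.07 (20 tested). Without replicate 7, a high mouse, these medians were -0.01, 0.08 and -0.11. The deep layer median turned to 0.14 without replicates 1, 4 and 12. Crym, a thyroid hormone binding protein and the deep layer gene of smallest p, was 244 to 384 CPM in high and 330 to 457 CPM in low mice (-0.38 ± 0.11 SE).

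Myelin genes had the most negative median of any of the 22 lists. All 30 tested genes were below 0, the median was -0.77, and 0 were called. This value rested on single mice. Replicates 1 and 12, both low in Syn1, and replicate 4, high in Syn1, had 1820 to 3530 CPM of Mbp, the myelin basic protein gene, whereas the other 9 mice had 289 to 808 CPM. The summed level of the list was 1493 to 7698 CPM in high mice and 1758 to 14850 CPM in low mice. The median of the list was 0.28 without these 3 mice, -0.18 in batch A, -1.15 in batch B and 1.04 in the squirrel monkey mice. Serpina3n had a log2 fold change of -1.73 without the 3 mice (adjusted p = 0.439, edgeR). It was -1.96 in a fit that held the myelin score as a term (adjusted p = 0.0457, edgeR). The part of myelin in the Serpina3n difference was not tested.

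Other glial and vascular lists leaned the same way at smaller size, with 0 called in each. Of 26 astrocyte genes 24 were negative (median -0.17), among them Gfap and the intermediate filament gene Vim (-0.95), while the metallothionein gene Mt3 had 0.55. The water channel gene Aqp4 was 54.9 to 85 CPM in high and 53.4 to 139 CPM in low mice (-0.50). The medians were -0.17 for 22 microglial genes, with 0.22 for the fractalkine receptor gene Cx3cr1 and -0.37 for Tmem119, and -0.11 for 23 endothelial and mural genes. Meningeal and choroid plexus genes had -0.17 (12 tested), with -0.76 for the matrix gene Dcn, and red cell genes -0.36 (4 tested). Without the 3 mice of high myelin the medians were -0.11 for astrocytes, -0.05 for microglia, -0.02 for endothelium, -0.07 for meninges and 0.01 for red cells. In the squirrel monkey mice all 5 were positive, from 0.43 to 0.83. The part of dissection in these values was not tested.

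**Figure D5:**
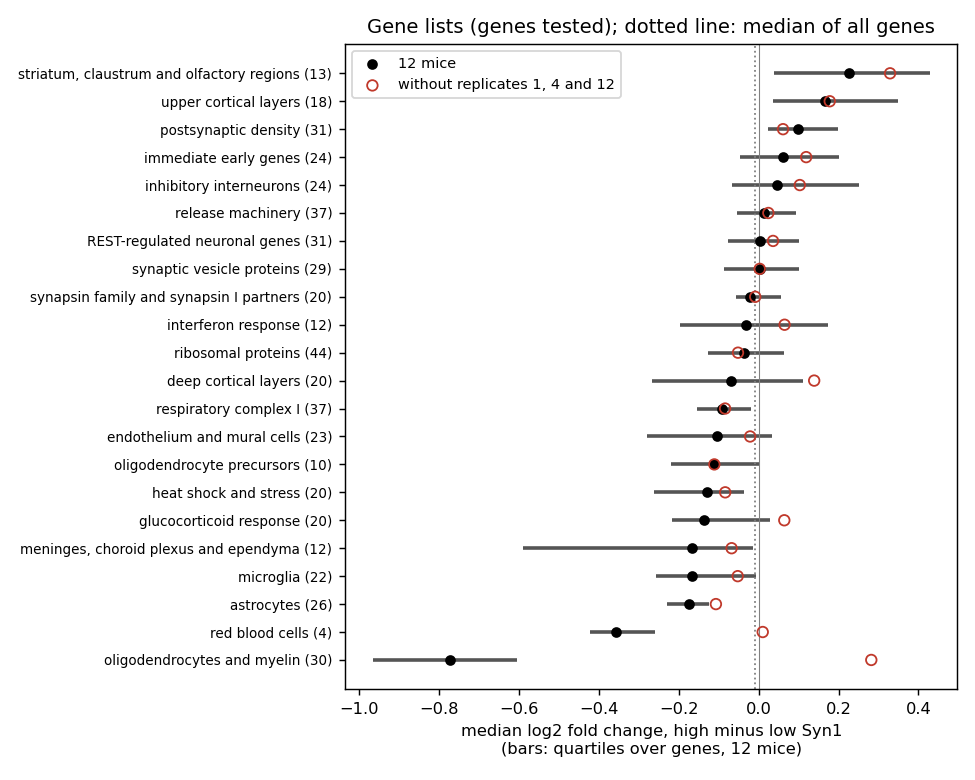
Median log2 fold change of high over low Syn1 mice for each of the 22 lists (genes tested in brackets) over the 12 mice (black, with bars for the quartiles over genes) and without replicates 1, 4 and 12 (open red), with the median of all genes as a dotted line. Myelin genes lie lowest with 12 mice (-0.77) and above 0 without those 3 mice (0.28), and the synaptic lists lie within 0.10 of 0.

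Of the remaining lists, none held a called gene. Immediate early genes had a median of 0.06 (24 tested), with 0.91 for Klf4, a zinc finger transcription factor. Glucocorticoid response genes had -0.14 (20 tested), which became 0.06 without the 3 mice, with -0.36 for Gpd1, a glycerol phosphate dehydrogenase. Genes of striatum, claustrum and olfactory regions had 0.23 (13 tested), and -0.10 without replicate 7, a high mouse. The mean log2 level of that list, centred over the 12 mice, was 0.837 in replicate 7, -0.13 to -0.04 in the other 5 high mice and -0.21 to 0.02 in the low mice. Ribosomal protein genes had -0.04 (44 tested), interferon response genes -0.03 (12 tested) and respiratory complex I genes -0.09 (37 tested, 4 of them lower at an unadjusted p under 0.05, beside 3.62% of all genes), with -0.29 for the subunit gene Ndufc2. Of 20 heat shock and stress genes the median was -0.13, and 4 were lower at an unadjusted p under 0.05, beside 3.62% of all genes. The inducible chaperone gene Hspa1b was 5.22 to 15.2 CPM in high mice (median 7.51) and 10.8 to 21.9 CPM in low mice (median 16.5), overlapping, and its log2 fold change was -0.91 ± 0.25 SE (adjusted p = 0.646). Hspa5, the chaperone BiP of the endoplasmic reticulum, had -0.23 and the secreted stress factor gene Manf -0.34.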

How the data were processed

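Frontal cortex RNA of 32 mice was sequenced by TagSeq, a tag method with single reads; this comes from the labels' protocols. Deposited by the authors were raw counts per gene (23958 rows), used as deposited, on build GRCm39 per the submitters' processing notes. The sources used here do not name an aligner, a counter, the use of strand or the handling of duplicates. In all, 3 columns of counts matched no sample used here and entered no step, and 76 rows had no symbol. Totals were 1204598 to 2089308 counts per human microbiota mouse. No pair held identical counts. Nothing says that the mice were housed or bred apart, so p-values measure only the spread between these samples.

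The members, lists and rules were chosen with earlier results of these data known. Syn1 was left out of the tests. Genes were filtered with filterByExpr on the Syn1 groups (minimum count 10, minimum total 15), scaled by TMM (0.969 to 1.032) and tested with edgeR 4.0.16 in R 4.3.3 (quasi-likelihood, batch as a term, Benjamini-Hochberg over 12265 genes, threshold 0.05), after a check on simulated data. Intervals are 95%. Levels are CPM. The score of a list averages its members' log2 CPM (prior count 2) after centring each gene. Alternatives used DESeq2 1.42.0, limma 3.58.1, other scalings, filters and covariates, single batches and mice left out.

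Named were the synapsins, 4 annotated genes on each side of Syn1, 12 genes in each direction by smallest p with a mean of at least 5 CPM (none passed; 1 unnamed model was passed over), 8 genes with groups not overlapping, and up to 3 genes of smallest p per list. Others, in the widest gaps, over 2-fold or as markers, were named after their values were seen. Some genes that these rules take are left out of the text. Gene order, overlaps and copies of the last 300 bases (at least 100 bases at 95% identity) came from GENCODE M21, of another build, so no gene coordinates are given besides those of the RefSeq promoter.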

Additional observations from a re-analysis of the deposited data

Results flagged for a closer look

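Each named gene was looked at in the 6 high and the 6 low mice for a single mouse far from the other 5. Of 192 such sets of 6 values, 11 held one, where chance gives about 1 in 20. Among the leading genes and those beside Syn1, Kcnh1 reached 106 CPM in high replicate 7 (next 79.2 CPM), Tbc1d10a 14.2 CPM in high replicate 9 (next 9.78), Cdh8 was low at 14.1 CPM in high replicate 4 (next 25.3), and Uxt reached 12.7 CPM in high replicate 11 (next 7.1). Low replicate 10 was the highest low mouse for Syn2 at 1050 CPM (next 903) and for Bok at 36.3 CPM (next 23).

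Of the lists, Cryab, a small heat shock gene of oligodendrocytes, stood at 130 CPM in high replicate 4 (next 64), the high mouse of highest myelin score. Cdk5r1 was low at 326 CPM in low replicate 12 (next 393). The endothelial receptor gene Tek was low at 1.64 CPM in high replicate 9 (next 6.15). The globin genes were Hba-a2, low at 3.73 CPM in high replicate 11 (next 11.6), and Hba-a1, high at 26.9 CPM in low replicate 1 (next 13.4). Hba-a1 and Hba-a2 hold near-identical copies of each other's ends, so their separate values are uncertain.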

How the results depend on the processing

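The human contrast called 0 genes. It called 134 without a filter on low counts, 2 with DESeq2 (Serpina3n and Col6a1, adjusted p = 0.0143 each), and 1, always Serpina3n, with the myelin score as a covariate, with the continuous Syn1 level and in batch A alone. Leaving out 1 mouse gave 0 to 1 (Col6a1 without replicate 10). The other 8 settings gave 0: DESeq2 size factors, library totals as scaling, a 5 CPM filter, voom, no batch term, library total as covariate, batch B alone and the squirrel monkey mice added. Both settings added after seeing the data, without the 3 mice of highest myelin score and with all 32 mice, gave 0 as well. The cause of these differences was not tested. Serpina3n kept its sign in every setting, with adjusted p from 1.5e-30 to 0.78. The smallest came without a filter on low counts, at a log2 fold change of -2.045, near the -2.044 of the main fit. The squirrel monkey contrast (0) gave 27 with DESeq2, 45 without the batch term and 0 with library totals. The difference between batches gave 0 with DESeq2. Of 2592 log2 fold changes of 96 genes under 27 settings, 2524 kept direction and side of the threshold, 33 newly passed and 35, of 10 genes, changed sign. Outside the setting without a filter on low counts, only Serpina3n and Col6a1 newly passed. Of the 35 that changed sign, 29 belonged to Syn2 and the genes beside Syn1, whose values lay near 0. Leaving out 1 mouse gave -0.058 to 0.058 for Syn2, -0.024 to 0.069 for Usp11, -0.051 to 0.017 for Araf, -0.18 to 0.062 for Cfp, -0.088 to 0.30 for Uxt and -0.50 to 0.063 for Hba-a1. Without the 3 mice of highest myelin score the values that changed sign were Syn2 0.0093, Usp11 -0.060, Araf 0.027, Uxt -0.039, Bcas1 0.11, Cryab 0.12 and Hba-a1 0.17. In batch A they were Usp11 -0.028, Cfp 0.31, Ly6a 0.13 and Mt1 0.14, and in batch B Syn2 0.031. With library totals they were Syn2 0.0014 and Araf 0.0010, with voom Syn2 0.0078 and Cfp 0.015, with the squirrel monkey mice Usp11 -0.053 and Cfp 0.058, and with all 32 mice Usp11 -0.046 and Cfp 0.065. No paired analysis was possible because nothing in the labels pairs a high mouse with a low mouse. Replicate numbers here follow the order of the samples within each donor group. With 6 mice a group and a median SE of 0.15, small changes were not detectable, and low genes such as Timp1 are limited by their counts.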
